A study of Mus musculus with 8 samples.

Results

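The nuclear genes for subunits of the mitochondrial respiratory chain were followed in E14 mouse embryonic stem cells (ESCs), a cultured line that grows in a pluripotent state. Members were the genes whose symbol begins with Nduf and a subunit letter and number (complex I), is Sdha to Sdhd (complex II), or begins with Uqcr (complex III), with Cox and a number from 4 to 8 (complex IV) or with Atp5 (complex V). Of 55335 genes in the counts, 97 symbols matched, of which 8 with -ps in the symbol and 8 with fewer than 80 counts over the 8 libraries were left out. The remaining 81 genes were 37 of complex I, 4 of complex II, 8 of complex III, 15 of complex IV and 17 of complex V. Just inside the threshold were Cox4i2 with 109 counts and Cox7b2 with 125, and just outside it Cox6c2 with 67 and Ndufb4c with 51. All 81 were protein coding and passed the filter on low counts. The rule used no measured value other than this total count, although it was set with earlier results of these data known.

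All 8 libraries came from E14 ESCs infected with a lentivirus that carried an shRNA and then selected with puromycin, so that the control cells carried a virus and a drug treatment too. The groups were a scrambled negative control, knockdown (KD) of Sox2, KD of Hnrnpk and KD of Cdk9, with 2 biological replicates in each. Which shRNA of each target a library received, and whether cells were cloned, is not given in the sources used here. Polyadenylated RNA was sequenced, and counts per gene summed to between 16709201 and 17719366 per library.

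The targeted mRNAs were read first. The Sox2 counts were 7324 and 9257 in control and 5831 and 4968 in Sox2-KD, with a log2 fold change (log2FC) of -0.64 ± 0.16 (SE) and an adjusted p of 0.0479. Hnrnpk had 19436 and 19736 counts in control and, under the hnRNPK-KD label, 11890 in replicate 1 and 19663 in replicate 2. Only replicate 1 of that label thus held less of the mRNA, and the group is called by its label throughout. Cdk9 had 1931 and 2254 counts in control and 1251 and 899 in Cdk9-KD, a difference that did not pass the test (log2FC -0.91 ± 0.18, adjusted p = 0.0985). The 9 pluripotency markers checked were detected in every group, with a summed level of 6437 to 8445 CPM (counts scaled by library size) in the 8 libraries. In Sox2-KD, 8 trophectoderm markers summed to 185 and 317 CPM, against 89.0 and 101 in control, and 8 primitive endoderm markers to 44.1 and 64.2 CPM, against 4.50 and 5.90. Of 6 trophectoderm markers tested, Krt8, Krt18, Gata3 and Eomes were called higher there and 2 had a log2FC below 0. Of 6 primitive endoderm markers tested, Dab2 and Gata6 were called higher and 1 had a log2FC below 0. In Cdk9-KD, 1 trophectoderm marker was called higher than in control and 1 lower, with sums of 80.2 and 82.7 CPM over that list. Under the hnRNPK-KD label these sums were 97.5 and 130 CPM and no marker of the 2 lists was called against control. No marker of either list was at 0 in all libraries. In bulk RNA, fewer cells of a type and less RNA per cell cannot be told apart, and the part of these cells in the values below was not tested.

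The respiratory chain passes electrons from NADH (complex I) and succinate (complex II) through complexes III and IV to oxygen, and complex V, the ATP synthase, uses the resulting proton gradient to make ATP. A few core subunits are made inside the mitochondrion, while the nuclear genome encodes all the others, which are imported from the cytosol. Several subunits come in paralogous forms that differ between tissues. Pluripotent stem cells are known for strong glycolysis beside a working respiratory chain.

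The promoters of these genes are known for sites of NRF1, a factor named for its role at respiratory genes. In RefSeq windows on GRCm38.p6 from 250 bases before to 50 bases after the start site, 67 of the 81 members had a window. The letters GCGCATGC, a core of the NRF1 motif, were searched on both strands, a length settled on after a longer form had been counted. They stood in 10 of these 67 genes, or 14.9%, against 3.93% of 17491 genes with a window. The members were Atp5g2, Atp5k, Atp5l, Cox6a1, Ndufa6, Ndufa8, Ndufa11, Sdhb, Uqcr11 and Uqcrc1. A stretch of 30 bases around the match is shown for the 6 in which it lay wholly upstream of the RefSeq start site, since they carry the best known motif of the pathway. In the GENCODE annotation the stretches of Atp5g2 and Sdhb lie inside the gene, and that of Atp5k spans its start. Capitals mark the matched letters of either strand, which overlap where the capitals run longer, and each sequence is written 5′ to 3′ on the strand of its gene.
Atp5g2 (chr15:102671070-102671099, - strand): ggctccggccGCGCATGCGCagagccttcc
Atp5k (chr5:108434430-108434459, - strand): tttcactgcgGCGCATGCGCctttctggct
Cox6a1 (chr5:115349101-115349130, - strand): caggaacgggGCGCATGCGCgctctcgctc
Ndufa11 (chr17:56717692-56717721, + strand): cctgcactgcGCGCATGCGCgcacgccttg
Ndufa6 (chr15:82354356-82354385, - strand): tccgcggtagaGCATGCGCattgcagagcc
Sdhb (chr4:140961206-140961235, + strand): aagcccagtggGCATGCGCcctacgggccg

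Other motifs were counted in the same windows, on both strands. The YY1 letters AAGATGGC stood in 10 of the 67 genes (14.9%, against 3.57% of all), and the ETS letters CCGGAAGT in 5 (7.46%, against 5.69%). The letters GGGCGGGG of a GC box stood in 13 (19.4%, against 26.2%), CCAAT in 30 (44.8%, against 42.3%) and TATAAA in 6 (8.96%, against 14.8%). A match describes the letters of a window and is not a measured binding site.

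The members were abundant in control cells. Levels between genes are given as TPM, counts per base of 1 reference transcript per gene scaled to the same total in each library. The median of the 81 members was 209 TPM in control, against 9.13 TPM for the 16824 protein coding genes with a count. Median levels were 115 TPM for complex I, 166 for complex II, 252 for complex III, 299 for complex IV and 332 for complex V. The members together held 1.04 to 1.15% of all counts in each of the 8 libraries, and complex V alone held 0.499 to 0.568%. The member transcripts were short, with a median of 659 bases against 2097 for protein coding genes.

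**Figure D1:**
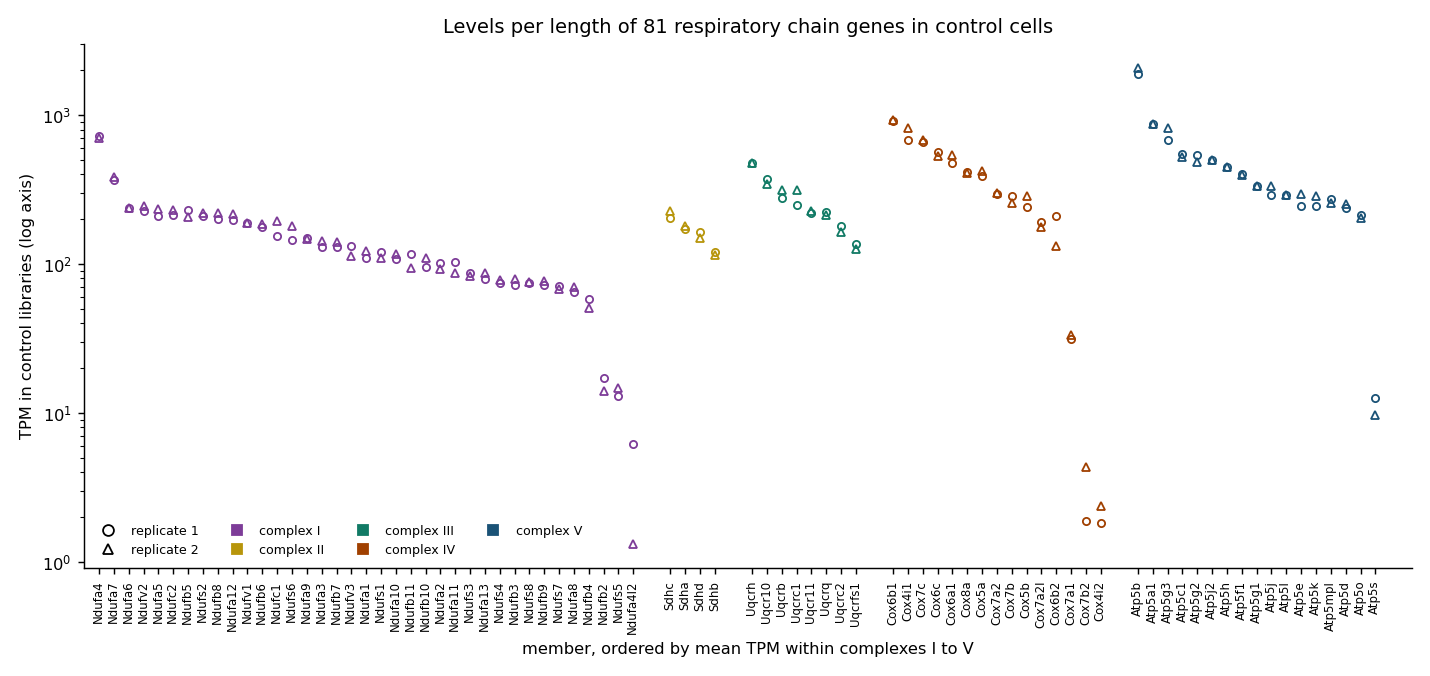
Level of each member in the control libraries in TPM (log axis), with replicate 1 as circles and replicate 2 as triangles, ordered by mean within complexes I to V. Atp5b stands highest with a mean of 1982 TPM, and Ndufa4l2, Cox7b2 and Cox4i2 lie lowest, with means of 3.75, 3.09 and 2.09 TPM.

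Atp5b, the catalytic β subunit of the ATP synthase, was the most abundant member, at 1982 ± 137 TPM (SD, n = 2) in control, followed within complex V by its α partner Atp5a1 at 871 ± 8.24 TPM. Of the other complexes, Cox6b1, a subunit on the outer face of complex IV, led with 922 ± 7.69 TPM. Ndufa4 led the genes counted under complex I with 712 ± 21.1 TPM, although its protein is known to associate with complex IV. Uqcrh, the hinge subunit of complex III, stood at 479 ± 1.44 TPM, and Sdhc, a membrane anchor of complex II, at 215 ± 17.2 TPM.

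At the other end stood Ndufb2 with 15.6 ± 2.21 TPM in control, Ndufs5 with 13.9 ± 1.20 and Atp5s, the coupling factor B, with 11.1 ± 2.03. The forms best known from certain tissues or from hypoxia were low too, namely Cox7a1 (32.2 ± 1.28 TPM), Ndufa4l2 (3.75 ± 3.46), Cox7b2 (3.09 ± 1.72) and Cox4i2 (2.09 ± 0.395). Of the reference transcripts of Ndufb2 and Ndufs5, 12.9% and 23.0% of the 100-base stretches also occur in another gene, Gm42420 and BC002163. How reads shared between genes were counted is not stated, so these 2 levels are uncertain.

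Paralogous forms were used in unequal parts, and the order of the forms was alike in the 4 groups. In the Atp5g set, which encodes the c ring of the ATP synthase with 3 genes for 1 mature protein, Atp5g3 held 47.0 ± 4.20% of the summed TPM in control, Atp5g2 32.2 ± 3.49% and Atp5g1 20.8 ± 0.713%. Over all libraries these shares lay between 44.1 and 51.2%, 28.4 and 36.3%, and 18.5 and 21.3%. Every 100-base stretch of the Atp5g2 transcript also occurs in the copies Gm10175 or Gm10231, and 48.1% of those of Atp5g1 in Gm10039, so these shares are uncertain.

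Cox4i1, the ubiquitous form of subunit 4, held 99.4 to 99.9% of its set in each library, with the lung and hypoxia form Cox4i2 making up the rest. The muscle forms Cox6a2 and Cox8b were at the edge of detection, with 2 counts each over all libraries. Cox7a2 and Cox7a2l, the latter known for supercomplex assembly, held 58.1 ± 1.18% and 35.6 ± 1.49% of the Cox7a set in control, and the muscle form Cox7a1 6.25 ± 0.307%.

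Cox6b2, a form best known from the testis, was well expressed in these cells. It held 15.5 ± 4.31% of the Cox6b set in control, 14.9 ± 0.425% in Sox2-KD, 18.6 ± 1.22% under the hnRNPK-KD label and 19.9 ± 3.45% in Cdk9-KD. Its level was 50.4 and 32.4 CPM in control, 33.1 and 30.6 in Sox2-KD, 52.2 and 50.1 under the hnRNPK-KD label and 60.2 and 36.3 in Cdk9-KD. The control libraries overlapped each KD, whereas Sox2-KD lay below the other KDs without passing the test (log2FC -0.68, adjusted p = 0.15 against the hnRNPK-KD label).

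**Figure D2:**
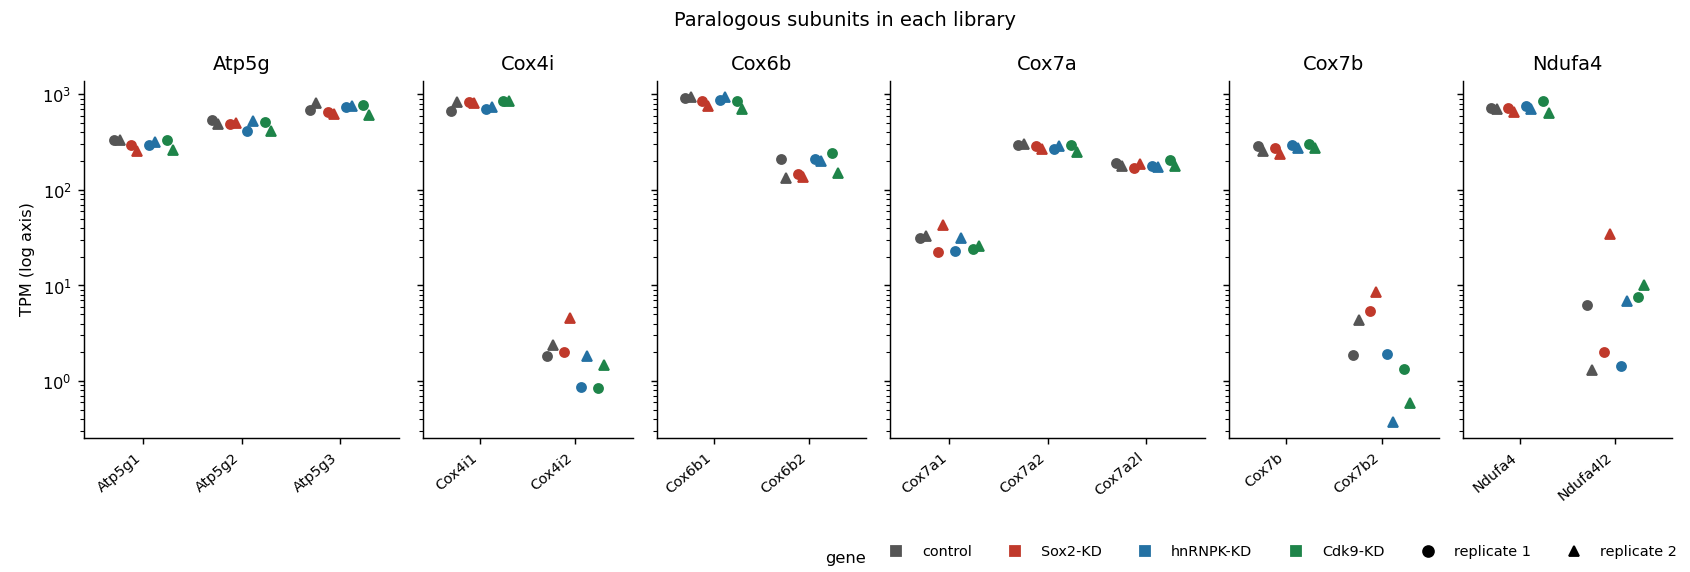
Level of paralogous subunits in each of the 8 libraries in TPM (log axis), colored by group, with replicate 1 as circles and replicate 2 as triangles. Cox6b2 lies between 12.5 and 22.4% of the summed Cox6b level, whereas Cox4i2, Cox7b2 and Ndufa4l2 lie far below their partners and scatter widely between libraries.

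Sox2-KD was compared with control in an edgeR quasi-likelihood fit over all 16504 genes tested, in which calls needed a p under 0.05 after Benjamini-Hochberg adjustment together with a log2FC beyond 0.6 in size. No member was called, against 4.32% of all genes tested. Of the 81 members, 8 had an unadjusted p under 0.05 (Ndufv2, Uqcrc2, Cox5a, Cox6c, Atp5a1, Atp5c1, Atp5g1 and Atp5s), all with a log2FC below 0, where 19.3% of all genes tested had such a p. DESeq2 and the likelihood ratio test of edgeR also called no member. In 55 of the 81 members the 95% interval of the log2FC lay within 0.6 either way, against 25% of all genes, and in 76 within 1, against 54.7%. With an average log2 CPM over 5, these shares were 72.7 and 100% of members against 54.2 and 91.8% of genes. In the remaining members a change of the size of the threshold could not be detected with certainty at this depth and replication.

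Small differences in 1 direction were common. The log2FC was below 0 in 66 of the 81 members (81.5%, against 48.2% of all genes), with a median of -0.13, against 0.02 over all genes tested. The 2 Sox2-KD libraries were both below the control libraries in 41 members (50.6%, against 25.2% of all genes) and above them in 6 (7.41%, against 28.2%). Among genes with an average log2 CPM over 5, the median was -0.14 for 66 members and -0.05 for 6048 genes, and 60.6% of members against 34% of genes had both libraries lower. The median of the members stayed below that of all genes with library totals in place of TMM scaling (-0.06 against 0.09) and after trends with GC content and length were removed (-0.20 against -0.07).

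Short abundant transcripts moved with this shift. The median log2 difference from the control mean was -0.10 and -0.14 over the members in the 2 Sox2-KD libraries. Over 542 other protein coding genes with a reference transcript under 1000 bases and a mean over 32 CPM it was -0.11 and -0.18. In these other genes the shift was thus as large as in the members.

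By complex, the shift was greatest in the ATP synthase. All 17 complex V members had a log2FC below 0, with a median of -0.26, and in 12 of them (70.6%) the Sox2-KD libraries were both below the control libraries. Over all genes tested these shares were 48.2 and 25.2%, and over genes with an average log2 CPM over 5 they were 57.8 and 34%. The medians were -0.08 for complex I, -0.17 for complex II, -0.10 for complex III and -0.09 for complex IV. Summed over the complex V members, the level was 87.5 and 86.3% of the control mean in the 2 Sox2-KD libraries, where the 2 control libraries stood at 96.6 and 103%. For complex I the values were 93.8 and 90.4%, and for all members 91.0 and 88.6%. The difference between complexes was not tested.

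**Figure D3:**
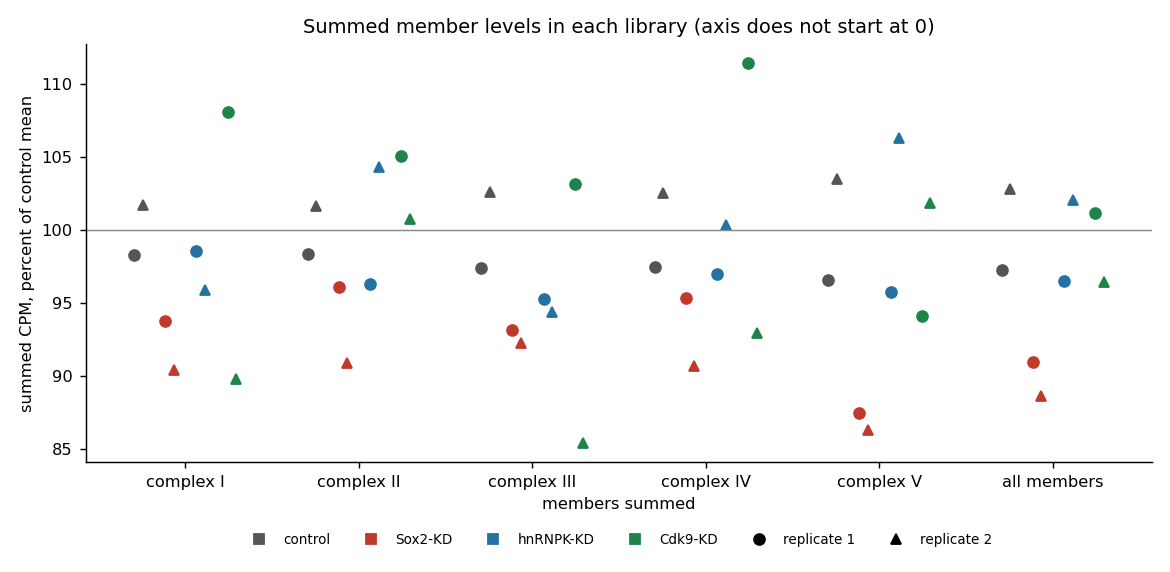
Summed CPM of the members of each complex in each library, as a percent of the control mean, colored by group with replicate 1 as circles and replicate 2 as triangles (the axis does not start at 0). The 2 Sox2-KD libraries lie below both control libraries in every complex, farthest in complex V, and the 2 Cdk9-KD libraries lie on either side of the control mean in complexes I, III, IV and V.

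Among complex V members, Atp5a1 had 1186 and 1222 CPM in control and 1006 and 958 in Sox2-KD (log2FC -0.29 ± 0.13, adjusted p = 0.235). Atp5c1, the γ subunit at the rotor axis, had 353 and 346 CPM in control and 301 and 258 in Sox2-KD (log2FC -0.32 ± 0.13, adjusted p = 0.225). Of the 3 c-ring genes, Atp5g1 and Atp5g3 had a log2FC of -0.37 and -0.33, and Atp5g2 of -0.15. In Atp5a1, Atp5c1 and the 3 c-ring genes the groups did not overlap, yet no difference passed the test. For Atp5b the groups overlapped, with 2004 and 2248 CPM in control and 1890 and 2051 in Sox2-KD.

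Atp5s had the lowest log2FC of all members. Its counts were 183 and 141 in control, 71 and 94 in Sox2-KD, 90 and 160 under the hnRNPK-KD label and 175 and 176 in Cdk9-KD. The Sox2-KD counts were both below those of control, with a log2FC of -0.99 ± 0.32 (95% interval -1.70 to -0.28, adjusted p = 0.116). The gene (ENSMUSG00000054894.6) lies on chromosome 12 of GRCm38, from 69724950 to 69744660 on the + strand, and the exons counted for it overlap no other gene.

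In complex I, Ndufv2, an iron-sulfur subunit of the NADH-oxidizing module, had 116 and 128 CPM in control, 90.2 and 81.3 in Sox2-KD, 119 and 107 under the hnRNPK-KD label and 103 and 96.3 in Cdk9-KD. Its log2FC in Sox2-KD was -0.51 ± 0.14 (adjusted p = 0.0742), with no overlap between the groups. Its partners in that module, the flavin-binding Ndufv1 and the iron-sulfur subunit Ndufs1, had a log2FC of -0.13 and -0.12, and the accessory Ndufv3 of 0.23. Ndufb2, an accessory subunit of the membrane arm, stood on the other side, with 77 and 63 counts in control and 115 and 91 in Sox2-KD (log2FC 0.53 ± 0.29, adjusted p = 0.35). Ndufa13, whose exons overlap Tssk6 on the opposite strand, had a log2FC of -0.27.

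The largest log2FC of all, 2.18 for Ndufa4l2, rested on 1 library. This gene, known as a target of hypoxia-inducible factors, had 57 and 12 counts in control, 18 and 294 in Sox2-KD, 13 and 63 under the hnRNPK-KD label and 68 and 88 in Cdk9-KD. Sox2-KD replicate 2 stood above all other libraries, while replicate 1 lay between the 2 control libraries. The adjusted p was 0.296, and without Sox2-KD replicate 2 the log2FC was -0.98.

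No core subunit of the other complexes passed the test. In complex II the catalytic flavoprotein Sdha had a log2FC of -0.02, and its iron-sulfur partner Sdhb of -0.19. In complex III the log2FC was -0.05 for the core protein Uqcrc1, -0.36 for its partner Uqcrc2 (adjusted p = 0.202, with no overlap between the groups), -0.26 for the Rieske iron-sulfur protein Uqcrfs1 and -0.13 for Uqcrh. In complex IV, Cox5a had 139 and 154 CPM in control and 111 and 112 in Sox2-KD (log2FC -0.40 ± 0.14, adjusted p = 0.151), and Cox4i1, which joins it early in assembly, had 280 and 346 CPM in control and 327 and 315 in Sox2-KD (log2FC 0.04). Cox6a1 had 151 and 173 CPM in control and 197 and 196 in Sox2-KD (log2FC 0.28 ± 0.17, adjusted p = 0.415). Cox5a was thus lower and Cox6a1 higher in both Sox2-KD libraries than in both control libraries, and neither passed the test.

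**Figure D4:**
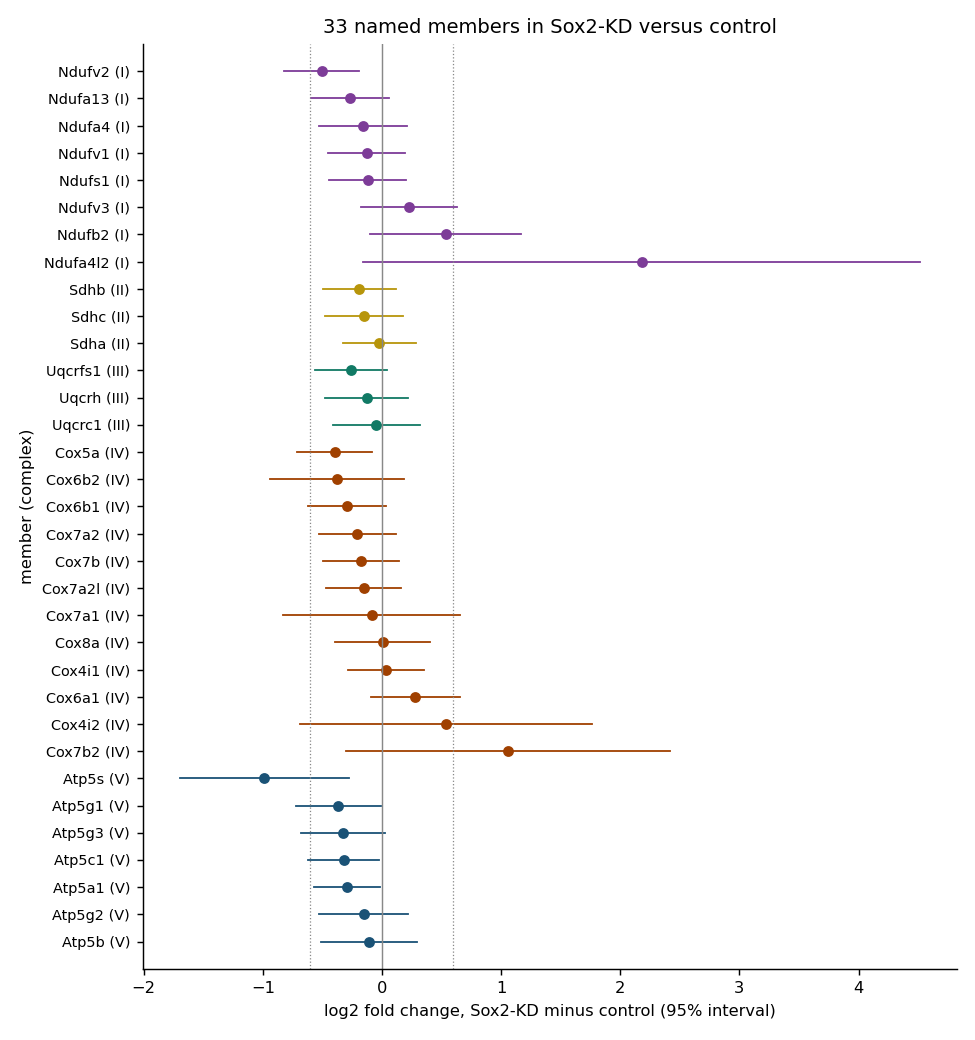
Log2FC of Sox2-KD versus control (points) with 95% intervals (lines) for 33 named members, grouped by complex, with dotted lines at 0.6 either way. The intervals of Atp5s, Ndufv2, Cox5a, Atp5g1, Atp5c1 and Atp5a1 lie below 0, and those of Ndufa4l2, Cox7b2 and Cox4i2 are the widest.

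The 10 members with the NRF1 letters had a log2FC in Sox2-KD between -0.26 (Atp5k) and 0.28 (Cox6a1). It was above 0 only in Cox6a1 and Ndufa8 and below 0 in the others, where 81.5% of all members lay below 0.

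Under the hnRNPK-KD label, no member was called against control and none had an unadjusted p under 0.05. Over all genes tested 0% were called and 8.03% had such a p, and DESeq2 and the likelihood ratio test called no member. The log2FC was below 0 in 53 of the 81 members (65.4%, against 47.6% of all genes), with a median of -0.04 against 0.02. Both libraries lay below both control libraries in 16 members (19.8%, against 18.7% of all genes) and above them in 5 (6.17%, against 20.4%). Among genes with an average log2 CPM over 5, the median was -0.04 for 66 members and 0.04 for 6048 genes. Of these, 22.7% of members against 12.8% of genes had both libraries lower, and 4.55% against 24% had both higher. The 95% interval lay within 0.6 either way in 72 members (33% of all genes). With an average log2 CPM over 5 it did so in 97% of members and 71.6% of genes. With only replicate 1, the library that held less Hnrnpk mRNA, the median was -0.06, and with only replicate 2 it was -0.05.

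Ndufb2 had the largest log2FC there among members with an average log2 CPM over 1, at 0.51 ± 0.29, followed by Cox6b2 at 0.30 and Ndufv3 at 0.22. The smallest were Atp5s at -0.33, Ndufa13 at -0.23 and Cox7a1 at -0.22. The adjusted p of these 6 lay between 0.715 and 0.938.

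In Cdk9-KD no member was called against control and none had an unadjusted p under 0.05, where 0.139% and 10.4% of all genes did. DESeq2 and the likelihood ratio test called no member either. The median log2FC was -0.02 against 0.02 over all genes, with 44 of the 81 members below 0 (54.3%, against 47.6%). Both Cdk9-KD libraries lay below both control libraries in 15 members (18.5%, against 18% of all genes) and above them in 7 (8.64%, against 21.2%). The 95% interval lay within 0.6 either way in 66 members (81.5%). This held for 30.5% of all genes and 66.5% of genes with an average log2 CPM over 5.

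The 2 Cdk9-KD libraries stood apart from each other. Summed complex I stood at 108% of the control mean in replicate 1 and 89.8% in replicate 2, complex III at 103 and 85.4%, and complex IV at 111 and 92.9%. The complex V sum stood at 94.1 and 102%, with Atp5b at 1903 CPM in replicate 1 and 2618 in replicate 2. Without Atp5b it was 97.0 and 88.5%, so that the other complex V members together were lower in replicate 2, as in complexes I, III and IV. Without Cdk9-KD replicate 1 the median log2FC of the members was -0.20, with 69 of 81 below 0, and without replicate 2 it was 0.10, with 20 of 81 below 0. The near-zero median of this group is thus a mean of 2 libraries on either side of it.

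Among members with an average log2 CPM over 1, the smallest log2FC in Cdk9-KD were -0.37 for Cox7a1, -0.29 for Ndufv2 and -0.27 for Atp5c1. Ndufa4l2, Ndufb2 and Ndufv3 had the largest, at 1.23, 0.44 and 0.38. The comparisons of the 3 KDs share their control libraries, and for Ndufb2 the 2 lowest of the 8 counts were those of control.

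**Figure D5:**
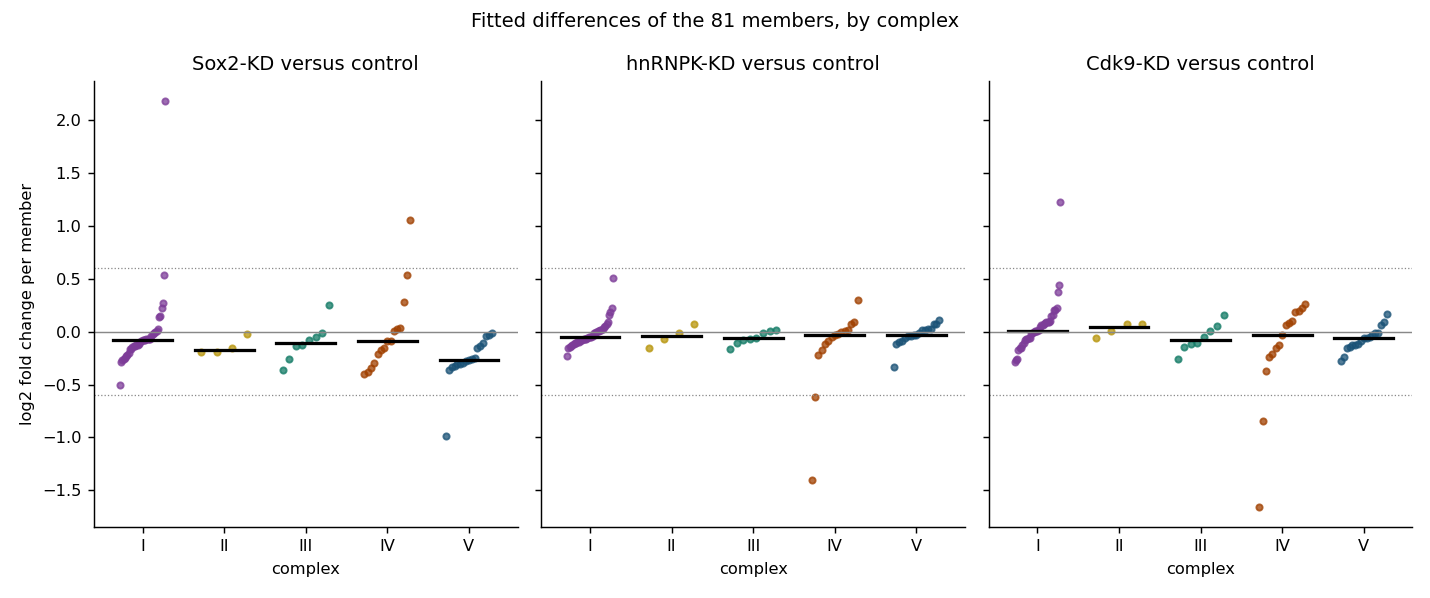
Log2FC of each of the 81 members in the 3 KD comparisons, by complex, with a bar at the median of each complex and dotted lines at 0.6 either way. Complex V lies wholly below 0 in Sox2-KD, and the members past the dotted lines are few and of low abundance.

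Between KDs, the direct comparison called 1 member. Cox7b2, a form of subunit 7b best known from the testis, was higher in Sox2-KD than in Cdk9-KD, with a log2FC of 2.71 ± 0.71 and an adjusted p of 0.0448, where 7.33% of all genes tested were called. Its counts were 10 and 23 in control, 28 and 42 in Sox2-KD, 10 and 2 under the hnRNPK-KD label and 7 and 3 in Cdk9-KD. Without the 2 Sox2-KD libraries its total would lie under the 80 counts of the rule. Its place in the set thus depended on the group in which it was called higher. In this comparison 5 members had an unadjusted p under 0.05, against 21.7% of all genes. The 2 Sox2-KD libraries were the highest of the 8 for Cox7b2, and neither KD was called against control, with a log2FC of 1.06 ± 0.62 in Sox2-KD (adjusted p = 0.392) and -1.65 ± 0.75 in Cdk9-KD (adjusted p = 0.481). Against the hnRNPK-KD label the log2FC was 2.46 ± 0.70 with an adjusted p of 0.0658. The call was lost without either Sox2-KD or either Cdk9-KD library, with an adjusted p of 0.0681 to 0.227. With all 8 libraries it was lost without a filter on low counts (adjusted p = 0.0503) and under the replicate block (0.0641), and a filter of 10 counts in every library left the gene out.

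The level of Cox7b2 remained low in all groups. It held 1.15 ± 0.716% of the summed TPM with Cox7b in control, 2.69 ± 1.08% in Sox2-KD, 0.393 ± 0.365% under the hnRNPK-KD label and 0.325 ± 0.160% in Cdk9-KD. The gene (ENSMUSG00000049387.10) lies on chromosome 5 of GRCm38, from 71442824 to 71548205 on the - strand, and shares no 100-base stretch with another gene. The summed level of 8 male germline markers was 27.9 and 39.1 CPM in control. It was 32.4 and 56.8 in Sox2-KD, 11.2 and 33.8 under the hnRNPK-KD label and 12.7 and 19.8 in Cdk9-KD. Of 4 of these markers tested, Ddx4 alone was called higher in Sox2-KD than in control, and 1 had a log2FC below 0. Whether germline-like cells were present, and their part in the Cox7b2 counts, was not tested.

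Of the other members, Atp5s was lower in Sox2-KD than in Cdk9-KD without passing the test (log2FC -1.15 ± 0.32, adjusted p = 0.0545), and it was called by DESeq2 (adjusted p = 0.0196) and by the likelihood ratio test (adjusted p = 0.015). Between Sox2-KD and the hnRNPK-KD label no member was called, against 5.9% of all genes, and 3 had an unadjusted p under 0.05 (21.3% of all genes), namely Ndufv2, Cox6b2 and Cox7b2. The likelihood ratio test called Cox7b2 there. With an average log2 CPM over 5, the median log2FC between these 2 groups was -0.12 for 66 members and -0.11 for 6048 genes. Between Cdk9-KD and the hnRNPK-KD label no member and 0% of all genes were called, and no member had an unadjusted p under 0.05, against 5.71% of all genes.

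The genes that build and serve the chain were read beside the members. None of the assembly factors of complexes I to V, the carriers and subunits outside the naming pattern, the regulators of mitochondrial biogenesis or the enzymes of the tricarboxylic acid cycle was called in any KD against control. Of 15 assembly factors of complex I, 13 had a log2FC below 0 in Sox2-KD, against 48.2% of all genes, with a median of -0.23. Among them were Ndufaf5 at -0.47 (adjusted p = 0.234), Nubpl, which delivers iron-sulfur clusters, at -0.53 (adjusted p = 0.19) and Foxred1 at -0.38 (adjusted p = 0.24). The 15 genes summed to 370 to 381 CPM in Sox2-KD and 417 to 467 in control. In the same comparison 12 of 20 assembly factors tested of complex IV were below 0 (median -0.06). So were 5 of 6 of complex III (-0.10) and 3 of 4 of complex II (-0.08). The 3 assembly factors of complex V had a log2FC below 0 under the hnRNPK-KD label, with a median of -0.36. There 2 had an unadjusted p under 0.05, against 8.03% of all genes. The 3 genes summed to 71.1 to 73.6 CPM there against 91.5 to 93.8 in control. All 3 were below 0 in Sox2-KD too and 2 in Cdk9-KD, with sums of 82.8 to 84.9 and 83.1 to 86.4 CPM.

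Cycs, the electron carrier between complexes III and IV, had a log2FC of -0.37 in Sox2-KD (adjusted p = 0.203), and Cyc1, the cytochrome subunit of complex III outside the pattern, of -0.10. Tfam, which packages and transcribes mitochondrial DNA, had a log2FC of -0.43 (adjusted p = 0.113), and Nrf1 itself of -0.04. As lists these genes moved less in Sox2-KD than the genes named. The log2FC was below 0 in 11 of 21 carriers and subunits outside the pattern (median -0.08). It was below 0 in 10 of 15 biogenesis regulators tested (-0.04) and 10 of 16 cycle enzymes (-0.05), against 48.2% of all genes. Of the cycle enzymes, Dld, the shared dihydrolipoamide dehydrogenase, was called lower in Sox2-KD than under the hnRNPK-KD label (log2FC -0.62, adjusted p = 0.0379), and its log2FC against control was -0.58 (adjusted p = 0.059).

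The 13 subunits encoded in the mitochondrion, which join the members in complexes I, III, IV and V, had their own values in Sox2-KD. The log2FC was below 0 in 2 of the 13, with a median of 0.06. Their summed level was 27888 to 28825 CPM in Sox2-KD and 27818 to 30306 in control, and none was called in any KD.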

How the data were processed

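The authors infected E14 ESCs with shRNA lentivirus, trimmed the reads (Trimmomatic), aligned these by STAR with GENCODE vM23 on mm10, and deposited unnormalized counts per gene for each of the 8 libraries. The submitters' processing notes name STAR 2.7.9a and featureCounts 2.0.1. Neither strandedness nor the handling of reads that fit several genes is given in the sources used here, so overlapping genes and near-identical copies are uncertain. The counts are per gene, and isoforms were not separated.

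The counts were used as deposited. Symbols, transcripts and coordinates came from GENCODE vM21 on GRCm38, in which 55154 of 55335 gene identifiers had a symbol. filterByExpr, at its minimum count of 10 and its minimum total of 15, left 16504 genes, all 81 members among them. All 8 libraries entered 1 fit in edgeR 4.0.16 (R 4.3.3) on TMM scaling and the groups, without covariates, by the two-sided quasi-likelihood test and Benjamini-Hochberg adjustment over all genes tested. Following the study's methods, calls needed an adjusted p under 0.05 together with a log2FC beyond 0.6 in size. Each KD was compared with control and the KDs with each other. CPM are TMM-normalized, and TPM use the annotated basic transcript of median length. The test was tested on simulated data before use. With 2 replicates per group the spread is estimated over all groups, and p-values measure the spread between these libraries. Replicates of a group differed by more than sampling noise.

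The members and the gene lists were chosen with earlier results of these data known. Members named are those called in any comparison, the 3 largest and 3 smallest log2FC in each KD against control (average log2 CPM over 1), the most and least abundant of each complex, core subunits and paralogue sets. Pathway genes called in any comparison are named as well, and other genes were named after their values were seen. Lists of fibroblast and striated muscle markers were read too. Of 5 fibroblast markers tested, Lum was called higher in Sox2-KD and 4 had a log2FC below 0, and no muscle marker was called in a KD against control. DESeq2 1.42.0, the likelihood ratio test, other scalings, filters, a replicate block, GC content and length trends (splines of 5 degrees of freedom) and leaving out each library were the alternatives. Plots came from matplotlib 3.10.9 (Python 3.11.15).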

Additional observations from a re-analysis of the deposited data

Results flagged for a closer look

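Cox7b2 was the only member called between 2 KDs in the quasi-likelihood test of all 8 libraries, while other tools and subsets of libraries also called Atp5s or Cox6b2. The log2FC between Sox2-KD and Cdk9-KD was 2.71, from 28 and 42 counts against 7 and 3, with an adjusted p of 0.0448 in the edgeR quasi-likelihood test. The call was lost without a filter on low counts (adjusted p = 0.0503), under the replicate block (0.0641) and without any 1 of the 4 libraries. All 4 libraries of the comparison held few counts of this gene. Its total reached the 80 counts of the rule only with the Sox2-KD libraries, the group in which it was called higher.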

How the results depend on the processing

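No member was called in any KD against control under any alternative run, which were DESeq2, the likelihood ratio test, RLE size factors, library totals, a fit of unfiltered genes, a filter of 10 counts in every library, a fit of the 4 compared libraries alone, the replicate block, removal of GC content and length trends, no fold threshold, members with at most 10% of stretches shared (added after the data were seen), protein coding members only (identical, since all are) and leaving out each library. Between Sox2-KD and the hnRNPK-KD label the count of 0 became 1 by the likelihood ratio test and after removal of the trends (Cox7b2, adjusted p = 0.00735 and 0.045) and with only the 4 libraries compared (Cox6b2, log2FC -0.68, adjusted p = 0.0407). Between Sox2-KD and Cdk9-KD the count of 1 became 2 with DESeq2, the likelihood ratio test and the trends removed, where Atp5s was added. It became 0 with no filter (Cox7b2, adjusted p = 0.0503), with at least 10 counts in every library, which leaves Cox7b2 out, and with the replicate block (adjusted p = 0.0641). Without 1 library it was 0 to 2, with 0 without either Sox2-KD or either Cdk9-KD library, and the log2FC of Cox7b2 was 2.24 to 3.44. The median log2FC in Cdk9-KD (-0.02) ran from -0.20 without Cdk9-KD replicate 1 to 0.10 without replicate 2. The other medians moved by less than 0.099, the SD between replicates of the library medians, pooled over the 4 groups. That SD includes the Cdk9-KD libraries, which lay far apart (0.10 and -0.16 against the control mean). The Sox2-KD libraries were closer (-0.10 and -0.14). The Sox2-KD median (-0.13) was -0.06 with library totals and -0.20 with trends removed. Of 53 named values the called one kept its direction wherever it had a value. Turns among uncalled values in Sox2-KD against control were Cox4i1 without a filter (-0.0023) and with trends removed (-0.10), Sdha (0.0480) and Uqcrc1 (0.0246) with library totals, and Cox8a with DESeq2 and RLE size factors (-0.0016 in each), no filter (-0.0322), only 4 libraries (-0.0156) and trends removed (-0.14). Without 1 library the ranges of those that turned were -0.13 to 0.19 (Cox4i1), -0.15 to 0.99 (Cox4i2), -0.64 to 0.30 (Cox7a1), -0.0178 to 0.0026 (Cox8a), -0.98 to 3.66 (Ndufa4l2), -0.0104 to 0.42 (Ndufv3), -0.10 to 0.0425 (Sdha) and -0.23 to 0.13 (Uqcrc1), and -0.82 to 0.00934 for Atp5s under the hnRNPK-KD label. The causes were not tested. Whether same-numbered replicates were handled together is not given in the sources used here, and the main fit did not pair them. The correlations of same-numbered deviations between groups ran from -0.22 (Sox2-KD and Cdk9-KD) to 0.21 (control and Sox2-KD), which cannot settle it. The replicate block changed no call of a member but that of Cox7b2. With 2 libraries per group, members of few counts (Cox7b2, Cox4i2, Ndufa4l2, Atp5s) have wide intervals, and most shifts are smaller than the intervals of single genes.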
